A study of Rattus norvegicus with 16 samples.

Results

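Cxcl1, Cxcl2, Ccl2, Nfkbia, Tnfaip3 and Icam1 are genes that the transcription factor NF-kB is known to switch on during inflammation: chemokines, feedback inhibitors and an adhesion molecule. They were chosen by name, with earlier results of these data known, and followed on 16 two-colour Agilent arrays of cultured rat hepatocytes. A probe carried the RefSeq accession of 5 of the 6 genes, and these 5 were among the 20789 genes tested. No accession on the array matched Tnfaip3 in the RefSeq annotation of the rat genome used here, so it has no value. The cells were primary hepatocytes of male Sprague Dawley rats in Williams Medium E, and no label gives the animals' age. Treatment began 48 h after plating and lasted 48 h, with SQ1 at 100 µM or pravastatin at 30 µM, and control cultures received neither drug. The labels give only the code name SQ1; work on hepatocytes uses it for squalestatin 1, which blocks squalene synthase. Pravastatin inhibits HMG-CoA reductase, an earlier enzyme of sterol synthesis. The doses differed between the drugs. Each array held RNA of 1 treated and 1 untreated culture. There were 8 arrays per drug, 4 in each dye orientation. Same-numbered arrays of both drugs carry the same control number in their file names, so the comparisons of the drugs share their untreated cultures. Drug names follow the labels of the scanner files. In the deposited value table, each column best matched the same-numbered scanner file of the other drug (r from 0.999 to 1.00 across probes, against 0.45 to 0.562 with its own label). If that table carried the right names, SQ1 and pravastatin would change places in every statement here.

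In resting cells NF-kB dimers are held in the cytoplasm by inhibitory IkB proteins, of which the product of Nfkbia, IkB-alpha, is the best known. Signals from TNF, interleukin-1 or endotoxin activate the IkB kinase complex, IkB is degraded, and the freed dimers bind kappaB motifs in the promoters of their targets. The targets include chemokines that attract neutrophils (Cxcl1, Cxcl2) and monocytes (Ccl2), the adhesion molecule Icam1, and the inhibitors Nfkbia and Tnfaip3, which close a negative feedback loop. In liver these genes are made by hepatocytes and also by macrophages, endothelial and stellate cells.

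The promoters are shown for the measured members because the binding motif is what joins these genes as a family. The RefSeq promoter table of build GRCr8 gives 300 bases per gene, 250 before and 50 after the start, and held an entry for 5 of the 6 genes; Ccl2 had none. The kappaB consensus, a motif of 10 letters, was searched on both strands. It was found in 7.51% of all 33469 promoter windows (2515). A relaxed form with any base in the first position was found in 25.7% (8589). A match on one strand often overlaps a match on the other, since the motif is close to its own reverse complement. Capitals mark the overlapping matches, 5′ to 3′ on the strand of the gene.
Cxcl1, chr14:17479375-17479425, minus strand: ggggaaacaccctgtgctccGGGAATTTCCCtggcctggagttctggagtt
Cxcl2, chr14:17467299-17467349, minus strand: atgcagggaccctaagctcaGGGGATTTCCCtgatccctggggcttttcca
Nfkbia, chr6:78597085-78597113, minus strand: tgactggctTGGAAATTCCCcgcgcctga
Icam1, chr8:27829606-27829656, plus strand: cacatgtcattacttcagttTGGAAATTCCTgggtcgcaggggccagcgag
Cxcl1 held 2 consensus matches, which overlapped at 1 place 84 to 74 bases before the start. Cxcl2 held 3, also at 1 place, 74 to 64 bases before the start. Nfkbia held 1, 31 to 22 bases before the start. Icam1 held none in this window and 2 overlapping relaxed matches 219 to 209 bases before the start. Tnfaip3 held 4 consensus matches at 3 places. A match is a description of letters and was not tied to binding here.

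Each measured gene had 1 probe, and each was well above background in both channels of all 16 arrays (32 of 32 channel measurements). Icam1 lay 25.0 to 61.8 times above its local background, Nfkbia 15.2 to 44.7 times, Cxcl1 6.8 to 36.0 times, Ccl2 5.01 to 20.6 times and Cxcl2 2.45 to 7.2 times. Cxcl1, Ccl2 and Icam1 were spotted 10 times per array and Cxcl2 and Nfkbia once. The SD of the log2 ratio among the 10 spots of Cxcl1 was 0.015 to 0.05 within an array, against an SD of 0.39 among the 8 SQ1 arrays. For Ccl2 the SD among spots was 0.02 to 0.048, and for Icam1 it was 0.022 to 0.166. Probe sequences were not used here, so binding of RNA from close relatives (Cxcl1 and Cxcl2, or Ccl2 and the other Ccl genes) was not checked. The arrays were divided by scan day into 2 series, called culture series here, with 4 arrays of each drug in each. Control numbers in the file names run from 1 to 4 in the first series and from 13 to 16 in the second. No label names a culture batch. Each of the 4 slides held 1 drug and 1 series, so drug and slide cannot be told apart. No spot was saturated, 71.3% to 86.2% of spots per array were well above background, and all 20 hepatocyte markers were above background in every channel.

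Cxcl1, the rat neutrophil chemokine also called CINC-1, fell most among these genes with SQ1. Its log2 ratio of treated over untreated was −1.56 at the lowest, −1.20 at the median and −0.44 at the highest of the 8 arrays. All 8 arrays were below 0, and replicate 1 was the least reduced. The limma estimate was −1.16 ± 0.09 (SE, n = 8 SQ1 arrays), so the level fell by 55.4%. The Benjamini-Hochberg adjusted p was 2.3e-09 over all genes tested. Beside an SE, here and below, n = 8 counts the arrays of the drug named. The SE itself comes from the fit to the arrays of both drugs, so a gene has the same SE with each drug. Only a small share of tested genes lay lower, as Cxcl1 stood at percentile 0.907 of all log2 values. With pravastatin the ratios of Cxcl1 ran from −0.51 over a median of −0.34 to 0.14. Here 7 of 8 arrays were below 0, the exception being replicate 1. The estimate was −0.30 ± 0.09 (SE, n = 8), so the level fell by 18.6%, with a limma adjusted p of 0.013. Fitted to the arrays of 1 drug only, Cxcl1 had a limma adjusted p of 3.7e-06 with SQ1 and 0.0011 with pravastatin. In the first scan-day series alone the pravastatin value was −0.19 and missed the threshold (limma adjusted p = 0.096).

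**Figure D1:**
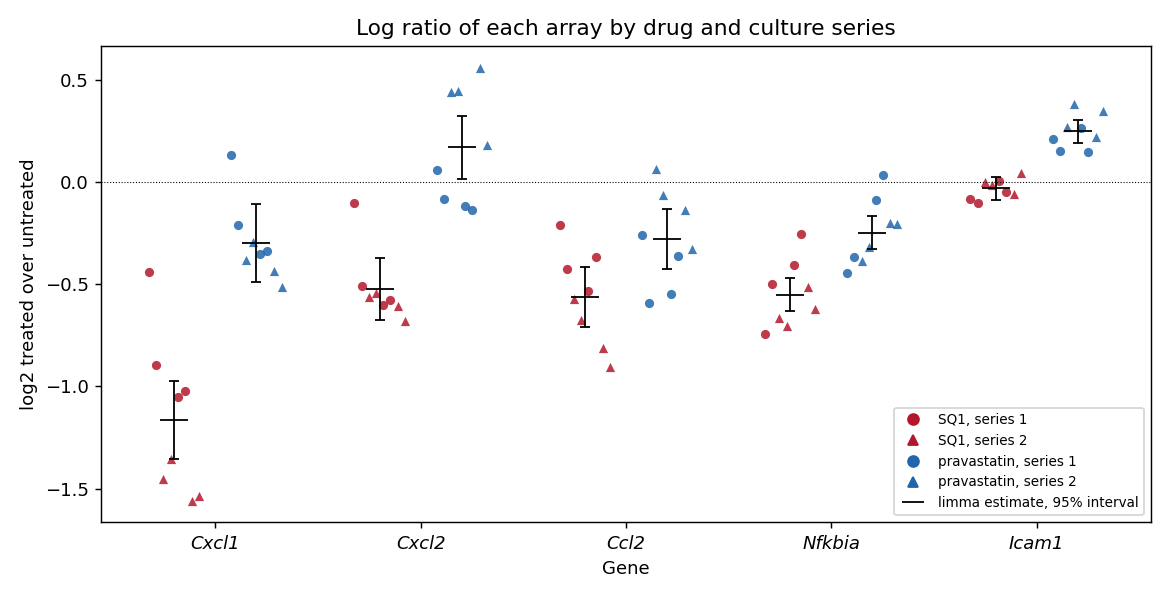
Log2 ratio of treated over untreated for each array (points) of the 5 measured genes, SQ1 in red and pravastatin in blue. Circles are scan-day series 1 and triangles series 2, and black bars are limma estimates with 95% intervals. All 8 SQ1 arrays lie below 0 for Cxcl1, Cxcl2, Ccl2 and Nfkbia, whereas Icam1 lies above 0 on all 8 pravastatin arrays.

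Cxcl2, another neutrophil chemokine (MIP-2), fell with SQ1 and did not pass the test with pravastatin. The SQ1 ratios ran from −0.68 over a median of −0.57 to −0.10. Apart from replicate 1, at the upper end, the arrays lay close together. The estimate was −0.52 ± 0.07 (SE, n = 8), so the level fell by 30.4% (limma adjusted p = 4.6e-06). The pravastatin ratios ran from −0.14 over a median of 0.12 to 0.56, with 5 arrays above 0 and 3 below. The estimate was 0.17 ± 0.07 (SE, n = 8; limma adjusted p = 0.072), with a 95% interval of 0.02 to 0.32. The call depended on single arrays: the limma adjusted p was 0.025, 0.048 and 0.042 without pravastatin replicates 2, 5 and 6. It was 0.053 without replicate 1, and 0.18, 0.18, 0.26 and 0.14 without replicates 3, 4, 7 and 8.

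Ccl2, the monocyte chemokine MCP-1, fell with both drugs. With SQ1 the ratios ran from −0.91 over a median of −0.55 to −0.21, all below 0. The estimate was −0.56 ± 0.07 (SE, n = 8), so the level fell by 32.3% (limma adjusted p = 1.2e-06). With pravastatin they ran from −0.59 over a median of −0.29 to 0.07, and 7 of 8 arrays were below 0. The estimate was −0.28 ± 0.07 (SE, n = 8), so the level fell by 17.4% (limma adjusted p = 0.004).

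Nfkbia, the inhibitor that NF-kB itself induces, also fell with both drugs. Its SQ1 ratios ran from −0.74 over a median of −0.57 to −0.26. All 8 arrays were below 0 and the spread among them (SD 0.165) was smaller than for the chemokines. The estimate was −0.55 ± 0.04 (SE, n = 8), so the level fell by 31.7% (limma adjusted p = 4.6e-10). With pravastatin the ratios ran from −0.45 over a median of −0.26 to 0.04, with 7 of 8 arrays below 0. The estimate was −0.25 ± 0.04 (SE, n = 8), so the level fell by 15.7% (limma adjusted p = 4.7e-05).

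Icam1, the adhesion molecule to which leukocyte integrins bind, went another way. With SQ1 the ratios ran from −0.10 over a median of −0.03 to 0.05, with 5 arrays below 0 and 3 above. The estimate was −0.03 ± 0.03 (SE, n = 8; limma adjusted p = 0.35), and its 95% interval of −0.09 to 0.03 allows only a small change. Its direction turned to 0.08 (adjusted p = 0.15) with median centring in place of loess. With pravastatin Icam1 lay above untreated on all 8 arrays, from 0.15 over a median of 0.24 to 0.38. The estimate was 0.25 ± 0.03 (SE, n = 8), or 18.9% higher (limma adjusted p = 1.1e-06).

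Across the genome SQ1 called 63.8% of the 20789 genes at an adjusted p under 0.05 (31.2% lower and 32.6% higher), and 4 of the 5 measured members, all lower. Their median was −0.55 against 0.01 for all genes. Pravastatin called 38.9% of genes (19.6% lower and 19.4% higher) and 4 of the 5 members, 3 lower and 1 higher. Their median was −0.25 against 0.00 for all genes. Calls were common everywhere, and the counts of the members and of the gene and marker lists below are to be read against these shares. The samples were bulk RNA, in which fewer cells of a type and less RNA per cell cannot be told apart.

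The drugs were then set against each other in the same fit, with the limit that doses and slides differed. All 5 members were lower with SQ1 than with pravastatin, against 37.9% of all genes called (19.5% lower). The difference was −0.87 ± 0.13 (SE) for Cxcl1 (limma adjusted p = 2.7e-05), −0.69 ± 0.10 for Cxcl2 (2.9e-05) and −0.29 ± 0.10 for Ccl2 (0.029). It was −0.30 ± 0.05 for Nfkbia (1.7e-04) and −0.28 ± 0.04 for Icam1 (1.3e-05). Only for Icam1 did the arrays of the drugs not overlap: the highest SQ1 array was at 0.05 and the lowest pravastatin array at 0.15. The share of all genes without overlap is not given, neither here nor for the scan-day series below. Between same-numbered arrays, SQ1 was the lower in 8 of 8 pairs for Cxcl1, Cxcl2, Nfkbia and Icam1, and in 5 of 8 for Ccl2. Scaling all arrays to 1 spread ended the calls for Ccl2 (−0.01, limma adjusted p = 0.98) and Nfkbia (0.02, adjusted p = 0.95). The Ccl2 call was also lost without any one of SQ1 replicates 3, 4, 7 and 8 or pravastatin replicates 3, 4 and 7, with adjusted p from 0.054 to 0.063. A random block for the slide (adjusted p = 0.065) and median centring (0.063) ended it as well.

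**Figure D2:**
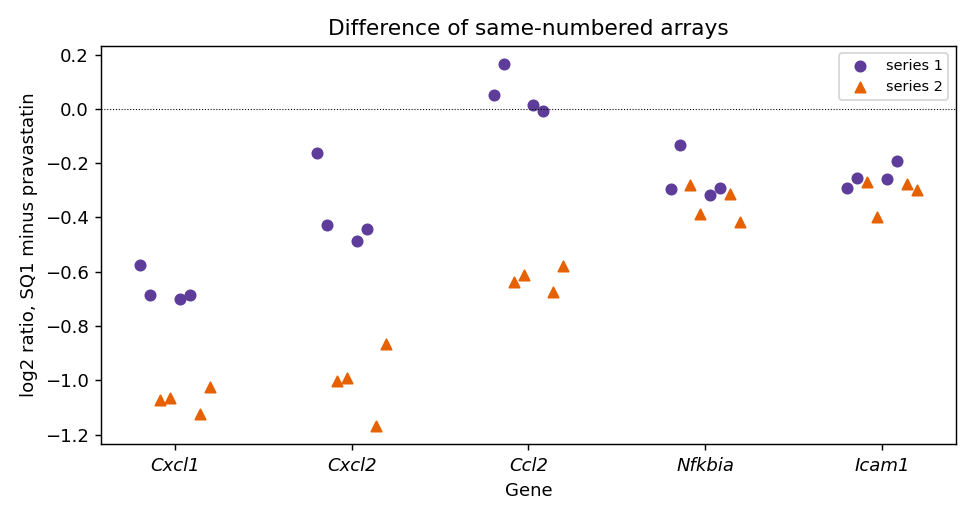
Difference between the log2 ratios of same-numbered SQ1 and pravastatin arrays for each gene, circles for scan-day series 1 and triangles for series 2. For Ccl2 the series 1 points lie between −0.01 and 0.17 and the series 2 points between −0.67 and −0.58, and for Cxcl2 the series are apart as well.

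The scan-day series divided the chemokines. With SQ1, Cxcl1 stood at −0.85 ± 0.28 (SD, n = 4) in the first series and at −1.48 ± 0.09 in the second. The arrays of the series did not overlap, and the difference of −0.62 ± 0.09 (SE) had a limma adjusted p of 2.2e-04, where 14.7% of all genes were called. Ccl2 with SQ1 stood at −0.38 ± 0.14 and −0.74 ± 0.15 (SD, n = 4 each), also without overlap (difference −0.36 ± 0.08, limma adjusted p = 0.0073). With pravastatin 4.96% of genes differed between the series. Cxcl2 stood at −0.07 ± 0.09 in the first and 0.41 ± 0.16 in the second (SD, n = 4 each): all 4 arrays of the second lay above 0, and 1 of 4 in the first, without overlap (difference 0.48 ± 0.08, limma adjusted p = 0.0045). Ccl2 with pravastatin moved opposite to its SQ1 pattern, from −0.44 ± 0.16 to −0.11 ± 0.16 (SD, n = 4 each; difference 0.33 ± 0.08, limma adjusted p = 0.029), and the arrays overlapped. Nfkbia and Icam1 did not pass this test with either drug, nor did Cxcl2 with SQ1 or Cxcl1 with pravastatin.

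The contrast between the drugs differed by series for these chemokines. For Ccl2, SQ1 minus pravastatin was 0.055 ± 0.077 (SD, n = 4 pairs) in the first series and −0.63 ± 0.04 in the second. The change of −0.68 ± 0.11 (SE) had a limma adjusted p of 0.0073, in a test that called 0.818% of all genes (170 of 20789). For Cxcl2 it was −0.38 ± 0.15 in the first series and −1.01 ± 0.13 in the second (change −0.63 ± 0.12, limma adjusted p = 0.018). Cxcl1 went from −0.66 ± 0.06 to −1.07 ± 0.04, without overlap, but its change of −0.41 ± 0.12 did not pass (limma adjusted p = 0.19). The test of these changes took the arrays of the drugs as independent and did not use the pairs. Its SEs and its share of genes called are therefore not those of a paired test, and no paired version is given. It cannot decide whether the change of Cxcl1 would pass with the pairing used. Nfkbia (−0.26 and −0.35; adjusted p = 0.83) and Icam1 (−0.25 and −0.31; adjusted p = 0.84) gave values closer together.

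Channel signals on a log2 scale, in arbitrary units, give the level of each gene in both channels. Untreated Cxcl1 on the SQ1 arrays was 12.18 ± 0.26 (SD, n = 4) in the first series and 13.25 ± 0.04 in the second, whereas SQ1-treated cultures were at 11.32 ± 0.02 and 11.78 ± 0.06. In the second series all conditions were apart: 11.71 to 11.86 with SQ1, 12.78 to 12.94 with pravastatin and 13.22 to 13.34 untreated. In the first, SQ1 (11.30 to 11.35) lay below the others, while pravastatin (11.79 to 12.01) and untreated cultures (11.71 to 12.38) overlapped.

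Ccl2 untreated was 11.27 ± 0.17 in the first series and 12.37 ± 0.11 in the second on the SQ1 arrays. Pravastatin-treated cultures were at 10.75 ± 0.09 and 12.27 ± 0.13, and SQ1-treated ones at 10.88 ± 0.06 and 11.63 ± 0.09 (SD, n = 4 each). In the first series the SQ1 and pravastatin cultures overlapped below the untreated ones. In the second the pravastatin cultures (12.08 to 12.36) overlapped the untreated ones of the same arrays (12.26 to 12.49), and the SQ1 cultures (11.50 to 11.69) lay below both.

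Cxcl2 untreated was 9.91 ± 0.19 and 10.23 ± 0.07 on the SQ1 arrays, SQ1-treated 9.46 ± 0.08 and 9.63 ± 0.10, and pravastatin-treated 9.88 ± 0.11 and 10.66 ± 0.19 (SD, n = 4 each, first and second series). In the second series the pravastatin cultures (10.40 to 10.83) were the highest without overlap. Nfkbia changed less between series: untreated cultures on the SQ1 arrays were at 13.15 ± 0.18 and 13.44 ± 0.04, and SQ1-treated ones at 12.68 ± 0.09 and 12.82 ± 0.08. Untreated Icam1 varied least, from 13.48 to 13.63 on the SQ1 arrays and from 13.50 to 13.60 on the pravastatin arrays, while pravastatin-treated cultures ran from 13.71 to 13.97. Untreated channels of the same number, measured once beside each drug, differed by at most 0.20 for Cxcl1, 0.16 for Nfkbia, 0.15 for Ccl2, 0.09 for Icam1 and 0.08 for Cxcl2.

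**Figure D3:**
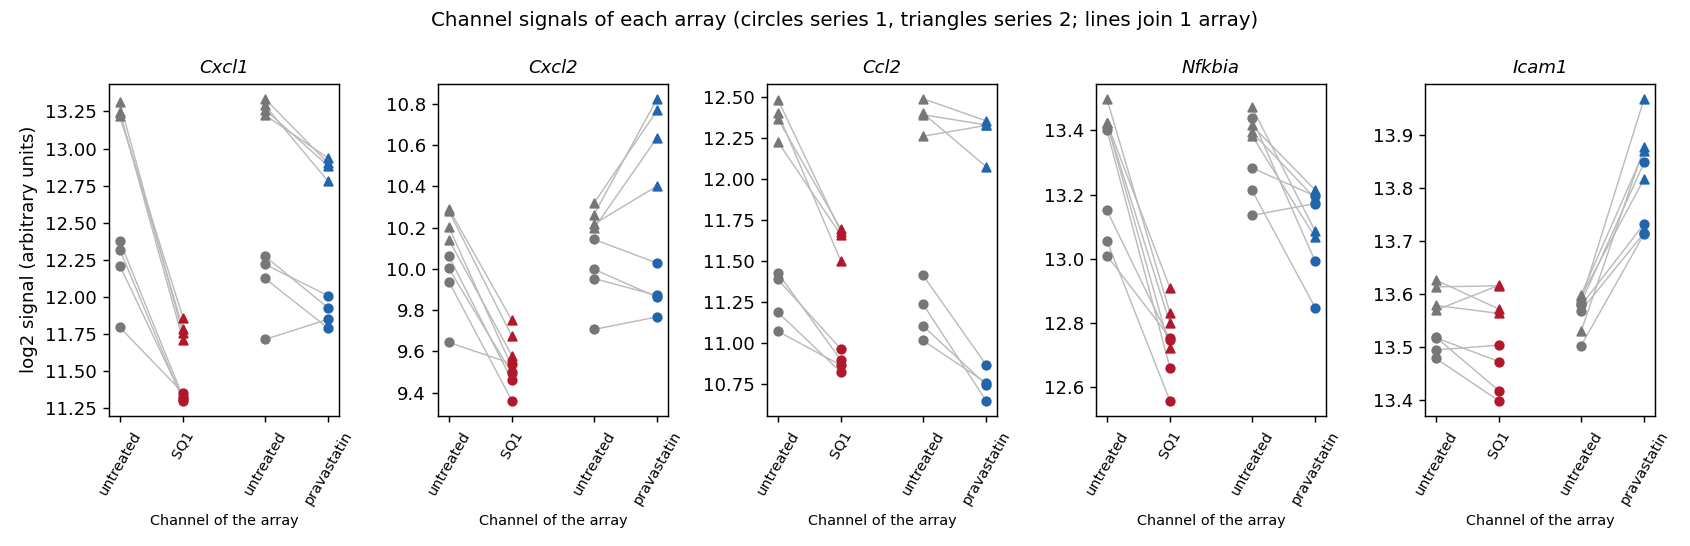
Log2 channel signal of every array for each gene, with a line joining the untreated (grey) and treated (colour) channel of 1 array. Circles are scan-day series 1 and triangles series 2, and each panel has its own axis. Untreated Cxcl1 and Ccl2 lie higher in series 2 than in series 1, and SQ1 brings Cxcl1 to 11.30 to 11.86.

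Among all chemokine genes the drugs gave a mixed picture. Of 33 listed, 28 were tested, including Cxcl1, Cxcl2 and Ccl2. With SQ1, 5 rose and 11 fell (median −0.07), and with pravastatin 6 rose and 10 fell (median −0.02). Calls made up 57.1% of the tested chemokines with each drug, against 63.8% of all genes with SQ1 and 38.9% with pravastatin. Cxcl9, an interferon-induced T cell chemokine, rose with SQ1 by 1.34 ± 0.06 (SE) or 2.52-fold and was at 0.08 ± 0.06 with pravastatin. Ccl20, a ligand of Ccr6 that is itself known as an NF-kB target, rose with both, by 1.12 ± 0.10 and 0.83 ± 0.10. Ccl12, a monocyte chemokine related to Ccl2, fell to −1.11 ± 0.06 and −0.54 ± 0.06, and Ccl6 to −0.95 ± 0.07 and −0.91 ± 0.07, with SQ1 and pravastatin in that order. Cx3cl1, fractalkine, fell with SQ1 (−0.50 ± 0.05) and rose with pravastatin (0.39 ± 0.05). NF-kB target chemokines stood at both ends of the SQ1 values, with Ccl20 near the top and Cxcl1 at the bottom.

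**Figure D4:**
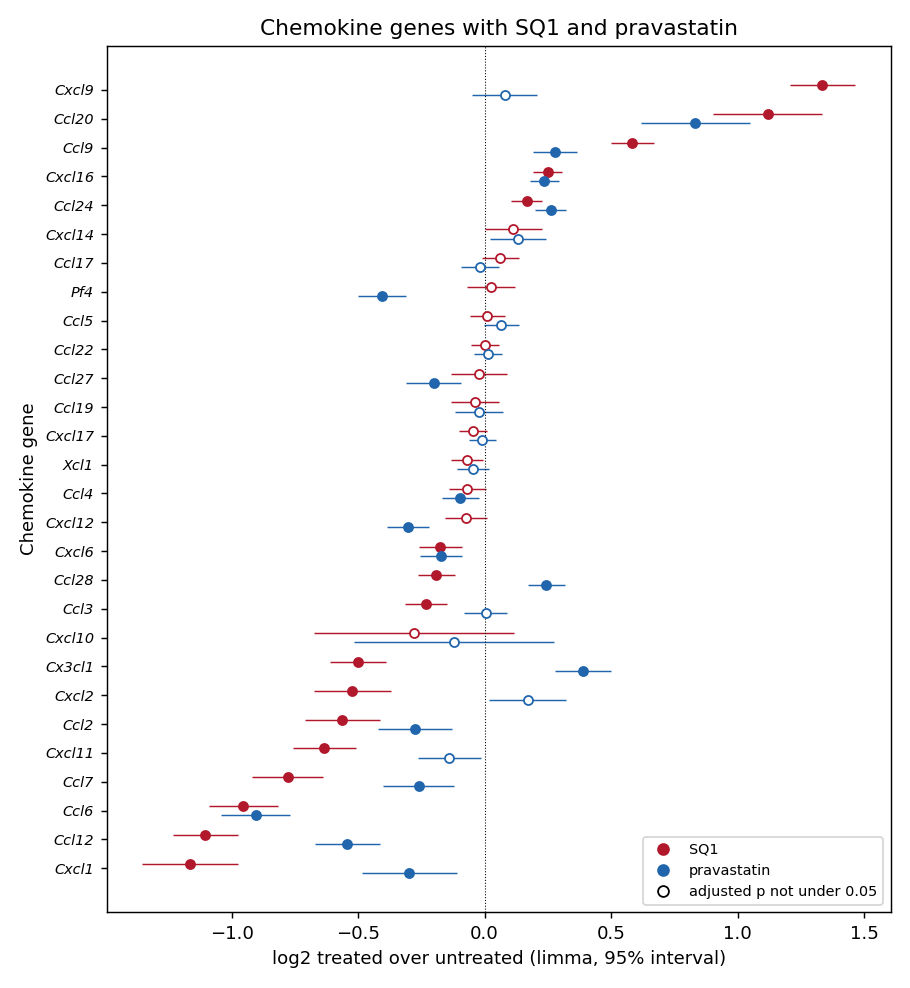
Limma log2 estimates with 95% intervals for the 28 tested chemokine genes, SQ1 in red and pravastatin in blue, ordered by the SQ1 value; open points did not pass an adjusted p of 0.05. Cxcl9 (1.34) and Ccl20 (1.12) are highest with SQ1 and Cxcl1 (−1.16) and Ccl12 (−1.11) lowest.

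Genes of the pathway itself were counted next. Of the 5 NF-kB subunit genes 2 were tested: Nfkb2 rose with SQ1 by 0.38 ± 0.04 and with pravastatin by 0.16 ± 0.04, and Rela rose with SQ1 by 0.14 ± 0.03 and was at 0.04 ± 0.03 with pravastatin. The pravastatin call of Nfkb2 was lost within series 1 (0.12, limma adjusted p = 0.11). Of 15 inhibitor genes 8 were tested, Nfkbia included. With SQ1, 4 rose and 2 fell, and with pravastatin 2 rose and 2 fell. These were 75% and 50% of the tested inhibitors, against 63.8% and 38.9% of all genes. The SQ1 balance turned with arrays scaled to 1 spread (1 higher, 2 lower) and within series 1 (2 higher, 3 lower). Zc3h12a, an RNase that degrades inflammatory mRNAs, fell beside Nfkbia, to −0.65 ± 0.05 with SQ1 and −0.24 ± 0.05 with pravastatin. Nfkbib, encoding IkB-beta, rose with SQ1 by 0.25 ± 0.02 and was at −0.02 ± 0.02 with pravastatin. Bcl3 rose by 0.195 ± 0.03 and 0.105 ± 0.03, and both of its calls were lost when arrays were scaled to 1 spread (adjusted p = 0.20 and 0.069).

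Of 21 kinase and adaptor genes 18 were tested. With SQ1, 7 rose and 3 fell, and with pravastatin 3 rose and 1 fell. These were 55.6% and 22.2% of the tested genes of this list, below the 63.8% and 38.9% of all genes. Ikbkg, the regulatory subunit NEMO of the IkB kinase complex, rose by 0.56 ± 0.04 and 0.20 ± 0.04. Birc2, a ubiquitin ligase of the TNF receptor complex, fell to −0.30 ± 0.03 and −0.14 ± 0.03. Irak4 (0.28 ± 0.03) and Tbk1 (0.26 ± 0.05) rose with SQ1, and stood at 0.02 ± 0.03 and −0.07 ± 0.05 with pravastatin.

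Of 20 upstream ligand and receptor genes 17 were tested. With SQ1, 5 rose and 10 fell, and with pravastatin 2 rose and 6 fell. Calls thus made up 88.2% and 47.1% of the tested genes of this list, against 63.8% and 38.9% of all genes. Il1b fell to −0.35 ± 0.06 and −0.34 ± 0.06, and Il1a to −0.27 ± 0.06 and −0.42 ± 0.06. Within series 1 the SQ1 call of Il1a was lost (−0.14, limma adjusted p = 0.051). Tnf fell with SQ1 (−0.30 ± 0.04) and was at 0.08 ± 0.04 with pravastatin. Cd14, the endotoxin co-receptor, fell to −0.72 ± 0.07 and −0.39 ± 0.07, and Tlr4 to −0.23 ± 0.04 and −0.16 ± 0.04. The pravastatin call of Tlr4 was lost within series 1 (−0.06, limma adjusted p = 0.38). Ly96, the partner of Tlr4 also called MD-2, rose with SQ1 by 0.79 ± 0.04 and stood at 0.08 ± 0.04 with pravastatin. Cd40 fell with SQ1 to −0.75 ± 0.06 and was at −0.14 ± 0.06 with pravastatin. Second probes were at −0.43 and −0.06 for Cd40, and at 0.655 and 0.105 for Ly96, with SQ1 and pravastatin in that order. The second probe of Il1a was at −0.09 and −0.20, and was above background in 18 of 32 channel measurements. With Agilent's processed signals both Cd40 (−0.23, limma adjusted p = 0.012) and Ly96 (0.15, 0.0071) passed with pravastatin, as Cd40 did without SQ1 replicate 2 (0.049) or 4 (0.026).

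Of 11 adhesion molecule genes 6 were tested, Icam1 among them. With SQ1 the other 5 fell and none rose, and with pravastatin 4 fell and 2 rose. Vcam1, the ligand of the integrin VLA-4 and an NF-kB target, fell to −0.58 ± 0.06 with SQ1 and to −1.30 ± 0.06 with pravastatin, under which Icam1 rose. Icam2 fell to −0.43 ± 0.04 and −0.27 ± 0.04. Of 25 chemokine receptor and integrin genes 13 were tested, with 0 higher and 7 lower with SQ1 and 1 higher and 5 lower with pravastatin. With SQ1, 83.3% of the tested adhesion genes and 53.8% of the receptor and integrin genes were called, against 63.8% of all genes. With pravastatin the shares were 100% and 46.2%, against 38.9%. Ccr1 was at −0.49 ± 0.05 and −0.56 ± 0.05, and Itgb2, the integrin chain that binds Icam1, at −0.45 ± 0.06 and −0.23 ± 0.06.

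Of 41 further NF-kB targets 34 were tested. With SQ1, 11 rose and 17 fell (median −0.11), and with pravastatin 5 rose and 13 fell (median −0.06). The called shares were 82.4% and 52.9%, against 63.8% and 38.9% of all genes. Gadd45b, a stress gene that restrains JNK signalling, rose with SQ1 by 1.17 ± 0.07 or 2.25-fold and with pravastatin by 0.23 ± 0.07. Cebpd, a transcription factor of the acute phase, fell with SQ1 to −0.79 ± 0.05 and was at 0.03 ± 0.05 with pravastatin. The complement genes C3 (−0.78 ± 0.05 and −0.54 ± 0.05) and Cfb (−0.72 ± 0.05 and −0.50 ± 0.05) fell with both, as did Plau, the urokinase gene (−0.55 ± 0.08 and −0.76 ± 0.08). Hp, haptoglobin, fell to −1.01 ± 0.04 and −0.39 ± 0.04. Scaling to 1 spread ended the SQ1 call of C3 (adjusted p = 0.17) and both calls of Hp (0.088 and 0.059).

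Markers of other liver cells moved beside these genes. All 17 tested of 18 macrophage markers were above background in every channel and fell with both drugs, by a median of −0.50 with SQ1 and −0.73 with pravastatin. With SQ1, 9 of 17 fell when arrays were scaled to 1 spread and 13 of 17 within series 1. Their summed signal was 48600 to 74100 with SQ1 against 67000 to 123000 in the untreated channels, and 46600 to 56800 with pravastatin against 72500 to 110000. All 12 tested of 13 stellate cell markers fell with SQ1 (median −0.54; summed signal 37600 to 56700 against 59400 to 73800). With pravastatin 5 fell and 1 rose (median −0.09; 53600 to 68000 against 61000 to 71600). Of 12 endothelial markers 7 were tested, and 5 fell with SQ1 and 2 with pravastatin (summed signal 1430 to 1880 and 1740 to 3250, against 1900 to 2800 and 1850 to 2910). Of 12 lymphocyte markers 5 were tested, and 3 fell with each drug (1070 to 1160 and 1030 to 1200, against 1230 to 1540 and 1190 to 1580). Of 12 neutrophil markers 8 were tested. With SQ1, 2 rose and 5 fell, and with pravastatin 5 fell (167000 to 207000 and 119000 to 154000, against 133000 to 189000 and 130000 to 185000), while Mpo, Elane, Ltf and Mmp8 did not pass the filter. Of 8 cholangiocyte markers 7 were tested. With SQ1, 1 rose and 3 fell, and with pravastatin 3 rose and 1 fell (29200 to 35200 and 23300 to 33200, against 19800 to 24600 and 18900 to 25400). Of the 20 hepatocyte markers 19 fell and 1 rose with SQ1 (median −0.64; summed signal 1020000 to 1590000 against 1810000 to 2380000). With arrays scaled to 1 spread, 12 fell and 1 rose with SQ1. With pravastatin 17 fell and 2 rose (median −0.32; 1460000 to 1930000 against 1570000 to 2280000). The part of other cell types in the members' values was not tested.

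As a description, the genes whose ratios ran most alike over arrays were sought, by the lower of Pearson's r over the 8 SQ1 and over the 8 pravastatin arrays after removal of the dye term. Same-numbered arrays share an untreated culture, so part of any likeness can be common to both drugs by design. Nearest to Cxcl1 were Taldo1 (0.974), Inpp5f (0.965) and Rnd2 (0.958). Cxcl2 ran nearest to Mtmr11 (0.853), Myo1g (0.842) and Dnai2 (0.807), and Ccl2 to Steap4 (0.847), Ssr1 (0.844) and Zfp566 (0.838). Nfkbia ran nearest to Ssr3 (0.862), Glud1 (0.849) and Dab2 (0.82), and Icam1 to Fto (0.892), Tesk2 (0.849) and Ripk2 (0.844). No member was among the nearest 3 genes of another.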

How the data were processed

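Per the file headers, each scanner file was written by Agilent Feature Extraction 10.7.1.1 and held, per spot, the authors' linear signal intensity and background in both channels and a log10 ratio of red over green. The deposited value table held 1 log2 ratio per probe; its centring is not stated. The genome build named in the files is rn4, and no coordinates were taken from it.

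Median signal intensities were background-corrected (normexp, offset 50) and loess-normalised within arrays with control spots at weight 0, in limma 3.58.1 under R 4.3.3. Median channel signals were 588 to 663 (A555) and 790 to 1076 (A647) over backgrounds of 306 to 348; the number of arrays limits the precision. Replicate spots were averaged per probe. Probes above background in at least 6 of 32 channel measurements were kept, and the brightest probe stood for a gene. Symbols came from RefSeq accessions (17998 of 30367 probes matched). Each drug and a dye term were fitted over all 16 arrays, with Benjamini-Hochberg adjustment over 20789 genes and a threshold of 0.05. The procedure was tested on simulated data with independent noise on each array, which leaves out the untreated cultures and slides that the real arrays share. Channel signals came from Aquantile normalisation after loess.

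The members and gene lists were chosen with earlier results of these data known. Genes named from each list were the 3 largest called per comparison, plus Tnf, Il1b, Tlr4 and Cd14; some of them are left unnamed. Same-numbered arrays share a control number, and their deviations from the drug means correlated at 0.142 to 0.629 in the 8 pairs. In pairs 2, 7 and 8 the correlations (0.341, 0.343 and 0.142) were exceeded by a differently numbered match (0.36, 0.391 and 0.33). The pairing therefore rests on the control numbers, and these correlations do not settle it. The series' own text calls the arrays of a drug biological replicates; whether these are separate animals is not given, and p-values measure the spread between these samples. The contrasts between scan-day series were added after seeing the data.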

Additional observations from a re-analysis of the deposited data

Results flagged for a closer look

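The log2 ratio of Cxcl1 on pravastatin replicate 1 was 0.136, apart from the other 7 arrays by 0.534 of the whole range. Cxcl2 on SQ1 replicate 1 was −0.103, apart by 0.703 of the range. Chance alone sets such a sample apart in about 1 in 20 groups, and 10 groups were examined. Both arrays share control number 3, whose untreated channels had the lowest Cxcl1 (11.79 and 11.71) and Cxcl2 signals (9.64 and 9.71) of all 8.

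By the limma contrast, the effects of SQ1 on Cxcl1 (second minus first, −0.624) and on Ccl2 (−0.357) differed between the scan-day series. So did those of pravastatin on Cxcl2 (0.476) and on Ccl2 (0.325). The contrast of SQ1 minus pravastatin also differed between the series for Cxcl2 (−0.626) and Ccl2 (−0.681). Between the series, scan day, slide and the control cultures used cannot be told apart.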

How the results depend on the processing

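With the replicate number as a block, every call of the 5 genes in the 3 comparisons kept its side of the threshold. The paired fit gave a limma adjusted p of 0.11 (random replicate block) or 0.061 (fixed) for Cxcl2 with pravastatin, and 0.013 or 0.035 for Ccl2 between the drugs. The number of members called was 4 under every alternative with SQ1, 3 to 5 with pravastatin and 3 to 5 between the drugs, where 3 came with arrays scaled to 1 spread. One alternative was the deposited value table, whose columns were given the drug of the scanner file they matched. It gave Cxcl1 with SQ1 the same −1.165 as Agilent's processed signals, so it is no separate measurement.

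Directions turned for Icam1 with SQ1 under median centring (0.076), for Cxcl2 with pravastatin within series 1 (−0.067), and between the drugs for Ccl2 within series 1 (0.055) and for Nfkbia with scaled arrays (0.021). Genes called ran from 9279 to 14364 with SQ1, from 4017 (within series 1) to 10068 with pravastatin, and from 3877 (scaled arrays) to 9898 between the drugs, with 4840 within series 1. Fewer arrays entered the fits within a series; for the other settings the cause was not tested. Cxcl2 with pravastatin passed the threshold with Agilent's processed signals (0.22, adjusted p = 0.047), scaled arrays (0.19, 0.046), a series term (0.17, 0.049) and within series 2 (0.41, 1.1e-04). Cxcl2, at 2.45 to 7.2 times its background, had the weakest signal of the 5 genes. Of the gene lists, chemokines with pravastatin went from 6 higher and 10 lower to 6 and 6 within series 1. Kinases and adaptors with SQ1 went from 7 higher and 3 lower to 9 and 1 under median centring. Further targets with pravastatin went from 5 higher and 13 lower to 6 and 8 with scaled arrays. With pravastatin, Cxcl9 (0.13), Cebpd (0.16) and Tnf (0.09) passed the threshold within series 2.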
